A study of Mus musculus with 64 samples.

Results

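The genes described here encode the respiratory chain, the protein complexes of the inner mitochondrial membrane that pass electrons from food to oxygen and use the energy to make ATP. Members were taken by symbol from the GENCODE M21 annotation of the mouse genome (GRCm38). They are protein-coding genes whose symbol starts with Ndufa, Ndufb, Ndufc, Ndufs, Ndufv, Uqcr, Cox4 to Cox8 or Atp5, the succinate dehydrogenase genes Sdha to Sdhd, and the protein-coding genes of the mitochondrial DNA. This gave 94 nuclear and 13 mitochondrial genes among the 38924 genes listed in the series. The 94 include 8 Ndufaf genes, whose products help to assemble complex I and are not parts of it, and these were counted apart. Atp5o is annotated under 2 identifiers, of which 1 was in no table used here.

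RNA was measured by Smart-seq2, a full-length amplification method, in 64 libraries of blood progenitors sorted from C57BL/6 mouse fetal liver at 13/14 dpc, with 1 CMP HET library at 14.5 dpc. The fetuses carried Smarcd2 as +/+ (wild type, called WT), +/- (heterozygous, HET) or -/- (homozygous knock-out, KO). SMARCD2 (BAF60B) is a subunit of the BAF chromatin remodelling complex. LSK cells (CD45.2+ Lin- Mac+/low Sca1+ cKit+), the gate of blood stem cells and the earliest progenitors, were measured in 5 libraries of WT, 9 of HET and 9 of KO. The common myeloid progenitor gate (CMP) had 3, 7 and 4, that of granulocyte-monocyte progenitors (GMP) 3, 7 and 3, and that of megakaryocyte-erythroid progenitors (MEP) 3, 7 and 4. These 3 gates were Lin- Sca-1- and were told apart by CD34 and CD16/32. Whether each library had its own fetus is not given in the labels, so a p-value measures only how far these libraries spread, which may be technical.

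Complex I (NADH dehydrogenase) and complex II (succinate dehydrogenase) feed electrons to coenzyme Q, complex III hands them to cytochrome c, and complex IV (cytochrome c oxidase) gives them to oxygen. The protons pumped on the way drive complex V, the ATP synthase. Complexes I, III, IV and V are built from proteins of both the nuclear and the mitochondrial DNA, and complex II from nuclear genes alone. Blood stem cells are known for leaning on glycolysis while at rest and for raising oxidative phosphorylation as they divide and differentiate.

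Reads in genes per library ran from 4327582 to 24069833 for LSK, from 1577073 to 8092644 for CMP, from 1006090 to 6300070 for GMP and from 1488328 to 5646315 for MEP. Smarcd2 (chr11:106263179-106272972, minus strand) was measured at 49.4 to 70.4 CPM (read counts scaled to library size) in WT LSK cells and at 0.845 to 1.94 CPM in KO cells, and in all 4 populations its highest KO value was below its lowest WT value. Genes that mark the sorted progenitors were detected in each population, with a summed level of 2821 to 3491 CPM in WT and 3068 to 4133 CPM in KO LSK libraries. Some libraries stood apart in how far they favoured short transcripts. This was followed by a length index, taken as the median centred log2 CPM of long genes (over 5000 bases) minus that of short genes (under 1500 bases), with members and mitochondrial genes left out. The index ran from -0.246 to 0.262 in LSK and from -0.531 to 0.374 in CMP, but from -1.65 to 2.72 in GMP and from -1.76 to 0.752 in MEP. GMP KO libraries 6 and 15 (-1.45 and -1.54) and MEP KO library 15 (-1.76) were among the lowest.

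Of the nuclear members, 93 were listed in LSK cells and 88 had enough reads to be tested. Cox7a1, Cox7b2, Cox8b, Cox8c and Ndufa4l2 did not. In the other populations 87 were tested in each, and 86 in the model across CMP, GMP and MEP. All 13 mitochondrial members were tested in LSK, 10 of them in CMP, 9 in GMP and 10 in MEP. mt-Co2 and mt-Co3 were not analysed here in CMP, GMP and MEP, nor mt-Atp8 in CMP and GMP.

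In LSK cells many nuclear genes of the respiratory chain were lower in KO than in WT, by modest amounts. They came from all 5 complexes, with complex II resting on 1 gene, Sdhb. Of 88 tested, 39 fell and 1 rose at an edgeR adjusted p under 0.05, while 9.28% of all genes tested fell, 9.53% rose and 18.8% changed in either direction. Log2 fold changes were below 0 for 81 of the 88, with a median of -0.29 against 0.01 over all genes tested. Members that fell did so by 14.6% to 35.2%. The falls took in 17 of 36 complex I subunits, 1 of 4 of complex II, 3 of 8 of complex III, 6 of 14 of complex IV, 9 of 17 of complex V and 3 of the 8 Ndufaf assembly factors.

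The share of reads taken by all nuclear members together was 1.45 to 1.54% in WT and 1.22 to 1.43% in KO LSK libraries, so the 2 genotypes did not overlap. HET libraries took 1.31 to 1.55% and overlapped both. KO libraries also had the lower share within each of the 4 title series that held both genotypes: 1.24 to 1.39% against 1.53% in series 19, 1.22 to 1.43% against 1.45 to 1.51% in series 21, 1.25 to 1.30% against 1.54% in series 22, and 1.25% against 1.45% in series 24. The 39 genes that fell summed to 9270 to 10244 CPM in WT, 7766 to 9682 CPM in HET and 7093 to 8487 CPM in KO libraries, a sum over genes chosen by this comparison. In sorted bulk cells, fewer cells of a type and less RNA per cell cannot be told apart.

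**Figure D1:**
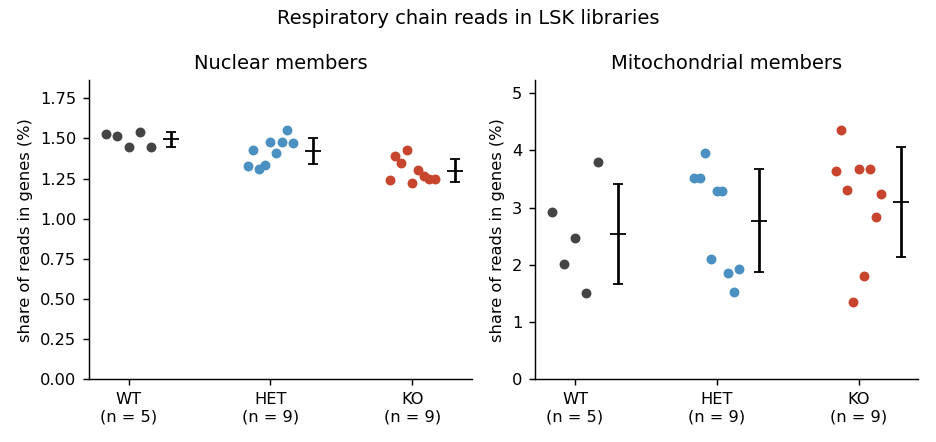
Share of reads in genes taken by nuclear (left) and mitochondrial (right) members in each LSK library, in percent, by genotype, with the mean and SD of each group beside its points. KO libraries lie below WT libraries in the nuclear share (1.22 to 1.43% against 1.45 to 1.54%) and overlap them in the mitochondrial share.

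Complex I is the entry point for electrons from NADH. Ndufv2, a core subunit that carries an iron-sulfur cluster, was at 231, 247, 251, 263 and 265 CPM in the 5 WT libraries and at 177 to 219 CPM (median 192) in KO. All 9 KO libraries lay below every WT library, with a log2 fold change of -0.36 ± 0.07 (SE, adjusted p = 0.000649, edgeR). HET libraries, at 205 to 275 CPM, overlapped both. Ndufa10, an accessory subunit, was at 192 to 229 CPM in WT and 150 to 185 CPM in KO (-0.30 ± 0.06, adjusted p = 0.00154). Ndufa5, another accessory subunit, went from 49.3 to 58.3 CPM in WT to 28.4 to 40.0 CPM in KO, a larger fall on the log2 scale (-0.61 ± 0.14, adjusted p = 0.00281). Ndufb6, of the membrane arm, was at 42.9 to 57.0 CPM in WT and 30.8 to 41.4 CPM in KO (-0.43 ± 0.10, adjusted p = 0.00374). None of these 3 had overlapping WT and KO libraries. Ndufs1, the largest subunit of complex I, also fell (-0.28 ± 0.07, adjusted p = 0.00609), although 2 of its 9 KO libraries lay within the WT range. The core subunit Ndufv1 (-0.09, adjusted p = 0.34) did not pass the test.

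The lowest adjusted p among members belonged to Ndufaf4 (chr4:24898083-24905001, plus strand), an assembly factor of complex I. It was at 92.9, 109, 111, 113 and 137 CPM in WT, at 88.5 to 118 CPM (median 112) in HET and at 60.5 to 95.2 CPM (median 76.3) in KO. The HET libraries lay in or just below the WT range, and 8 of 9 KO libraries lay below every WT library. The KO level fell by 0.58 ± 0.10 on the log2 scale against WT (adjusted p = 0.000342, edgeR) and was also lower than in HET (adjusted p = 0.000404). Ndufaf2, which joins complex I late in its assembly, had the largest fall of the members called, from 31.4 to 41.3 CPM in WT to a median of 25.2 CPM and at most 29.5 CPM in KO (-0.63 ± 0.13, adjusted p = 0.00176). Its WT and KO libraries did not overlap.

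In complex II, Sdhb, the iron-sulfur subunit, was at 286 to 313 CPM in WT and 228 to 284 CPM in KO, without overlap (-0.24 ± 0.08, adjusted p = 0.0327). Sdhb was called in 14 of 26 alternative fits, among them 7 of the 14 that left out a library. It was not called with the length index, sex or spike-in share as a covariate. Sdha, the catalytic flavoprotein partner of Sdhb, did not pass (-0.13, adjusted p = 0.188). In complex III, Uqcrq, a small subunit, was at 58.2, 61.0, 63.4, 64.1 and 70.1 CPM in WT, 49.7 to 68.5 CPM in HET and 36.8 to 53.0 CPM in KO. KO libraries again lay wholly below WT (-0.53 ± 0.10, adjusted p = 0.000479). The Rieske iron-sulfur protein gene Uqcrfs1 went from 265 to 320 CPM in WT to 183 to 250 CPM in KO, also without overlap (-0.38 ± 0.07, adjusted p = 0.000961). The core subunit gene Uqcrc1 did not pass (-0.12, adjusted p = 0.295).

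Complex IV holds several subunits that exist as a widely used form and a form found mainly in muscle, lung or testis. LSK cells used the common forms. Per kilobase of exon, the WT level was 220 ± 18 CPM for Cox4i1 and 7.55 ± 2.42 for Cox4i2 (mean ± SD, n = 5). It was 150 ± 19 for Cox6a1 and 2.22 ± 1.46 for Cox6a2, 299 ± 32 for Cox6b1 and 7.51 ± 0.76 for Cox6b2, and 156 ± 18 for Cox7a2 and 0.965 ± 0.558 for Cox7a1. Cox7b stood at 141 ± 9.0, Cox8a at 185 ± 18 and Ndufa4 at 309 ± 21 CPM per kilobase, while their rare forms Cox7b2, Cox8b, Cox8c and Ndufa4l2 had no reads in the WT libraries. The common forms Cox4i1 (-0.30 ± 0.10, adjusted p = 0.0351), Cox6a1 (-0.41 ± 0.11, adjusted p = 0.00977), Cox7a2 (-0.46 ± 0.15, adjusted p = 0.0368) and Cox7b (-0.45 ± 0.11, adjusted p = 0.00644) fell in KO. Cox6b1 (-0.15), Cox8a (-0.22) and Ndufa4 (-0.32) did not pass. Among the rare forms, Cox4i2 (-0.57 ± 0.22, adjusted p = 0.0659) and Cox6a2 (1.10 ± 0.42, adjusted p = 0.0667) did not pass either.

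Complex V, the ATP synthase, had the most abundant nuclear members. Atp5b, the catalytic beta subunit, was at 2454, 2564, 2587, 2756 and 2784 CPM in WT, 2262 to 2530 CPM in HET and 2110 to 2496 CPM in KO. A single KO library, at 2496 CPM, reached into the WT range, and the fall was small but passed the test (-0.25 ± 0.05, adjusted p = 0.00146). Atp5a1, the alpha subunit, was at 1483, 1536, 1546, 1574 and 1615 CPM in WT and 1150 to 1387 CPM in KO, without overlap (-0.32 ± 0.06, adjusted p = 0.000747). Atp5f1, of the stalk that holds the head in place, went from 472 to 550 CPM in WT to 355 to 444 CPM in KO (-0.35 ± 0.07, adjusted p = 0.00138). Atp5g3 (chr2:73908447-73911326, minus strand) is 1 of the genes for subunit c, the ring through which protons turn the motor. It was at 181, 189, 195, 208 and 226 CPM in WT, 127 to 211 CPM in HET and 110 to 157 CPM in KO. Its KO libraries lay below every WT library (-0.57 ± 0.10, adjusted p = 0.000529), and HET libraries spread over both ranges.

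Cox7a2l (chr17:83501918-83517330, minus strand) was the 1 member that rose. Its product has been linked to the joining of complexes III and IV into supercomplexes, which were not measured here. It was at 189, 199, 205, 215 and 224 CPM in WT, 151 to 226 CPM in HET (median 205) and 211 to 328 CPM in KO (median 254). In 8 of 9 KO libraries the level was above every WT library (0.30 ± 0.09, adjusted p = 0.0214, edgeR). KO was also higher than HET (0.34 ± 0.08, adjusted p = 0.00484).

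**Figure D2:**
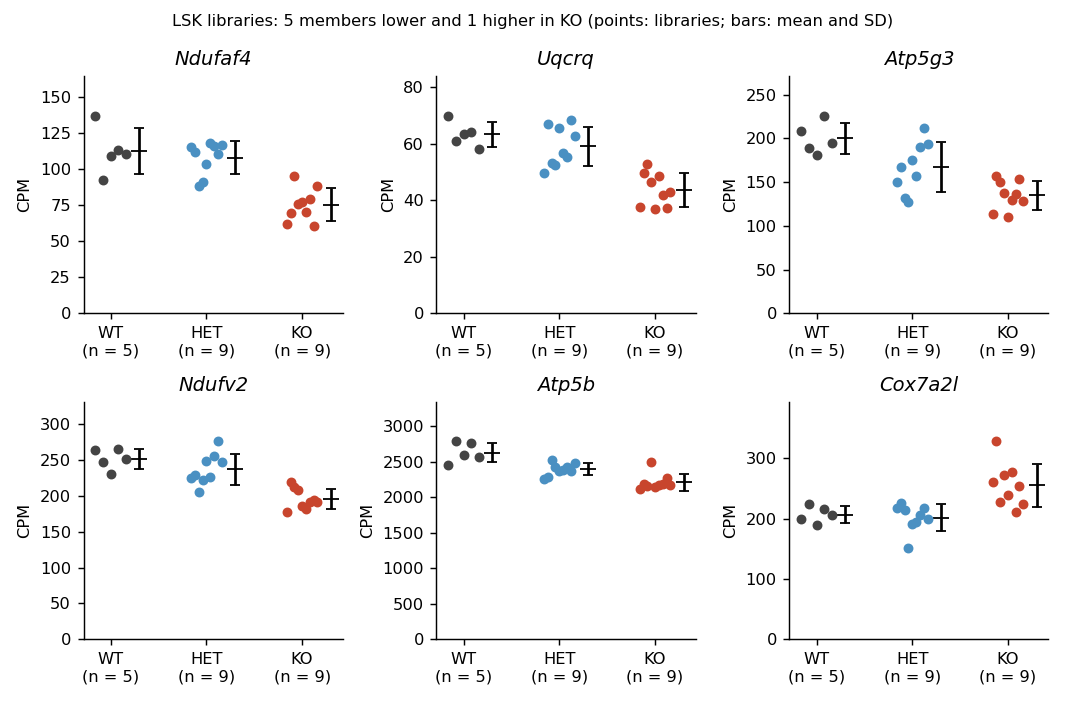
CPM in each LSK library for Ndufaf4, Uqcrq, Atp5g3, Ndufv2, Atp5b and Cox7a2l, by genotype, with the mean and SD of each group beside its points. KO libraries of Uqcrq, Atp5g3 and Ndufv2 lie below all WT libraries, and 8 of 9 KO libraries of Cox7a2l lie above them.

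The 13 mitochondrial members together took 1.51 to 3.80% of reads in WT and 1.36 to 4.36% in KO LSK libraries. None passed the test between KO and WT, and none had an unadjusted p under 0.05; with the share of spike-in RNA in the model 2 passed, mt-Nd3 (-1.07) and mt-Nd6 (-0.52). Their log2 fold changes were above 0 for 11 of 13, with a median of 0.14. mt-Co1, the catalytic subunit of complex IV, was at 5024 to 14132 CPM in WT and 4512 to 15587 CPM in KO (0.38 ± 0.30, adjusted p = 0.402). mt-Cytb, of complex III, was at 3369 to 8129 CPM in WT and 3036 to 8162 CPM in KO (0.14 ± 0.27, adjusted p = 0.777). WT and KO libraries overlapped for all 13. SEs of the 13 ran from 0.21 to 0.44 on the log2 scale, so that a fall as large as the nuclear median (-0.29) was under 2 SE for each of them. The other 11 had log2 fold changes of -0.01 (mt-Nd1), 0.17 (mt-Nd2), -0.14 (mt-Nd3), 0.12 (mt-Nd4), 0.10 (mt-Nd4l), 0.13 (mt-Nd5), 0.05 (mt-Nd6), 0.32 (mt-Co2), 0.19 (mt-Co3), 0.35 (mt-Atp6) and 0.32 (mt-Atp8). mt-Nd4l overlaps mt-Nd4, mt-Atp8 overlaps mt-Atp6, and mt-Nd6 overlaps mt-Nd5 on the other strand, so reads within these pairs cannot be fully told apart.

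**Figure D3:**
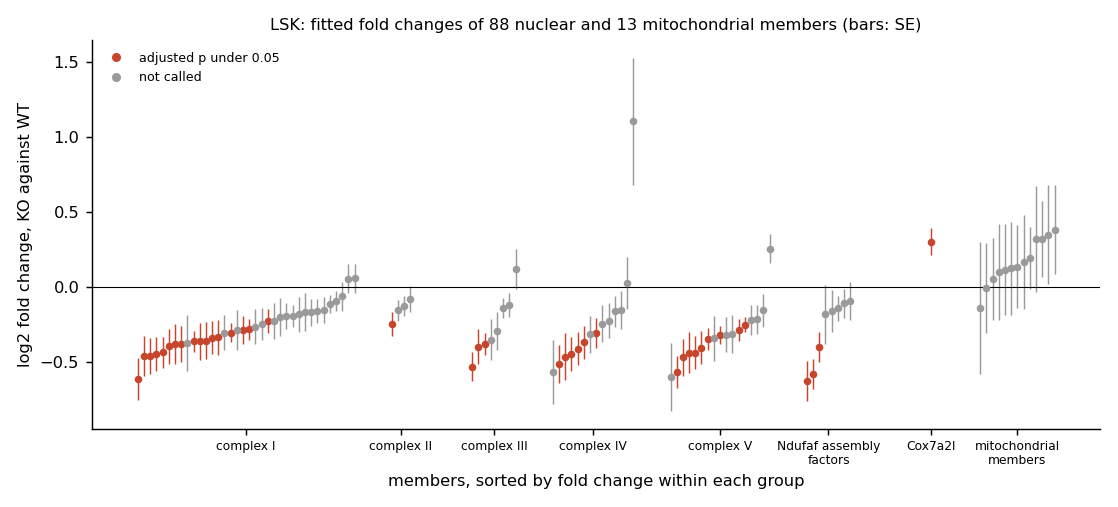
Log2 fold change of KO against WT in LSK cells for each tested member, 1 point per gene with its SE as a bar, grouped by complex and with the mitochondrial members last; red points passed an adjusted p of 0.05. Most nuclear points lie below 0 (81 of 88), and most mitochondrial points lie above it (11 of 13), with none of the mitochondrial members called.

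Heterozygous LSK cells lay between the other genotypes without a member passing the test. No nuclear or mitochondrial member was called in HET against WT, where 0.00721% of all genes tested were called, and 11 nuclear members had an unadjusted p under 0.05 (edgeR). DESeq2 and limma also called 0. Fold changes were below 0 for 75 of 88 nuclear members, with a median of -0.11. Against HET, 18 nuclear members were lower in KO and 1, Cox7a2l, was higher, with a median of -0.17. The background in that comparison was 5.17% of genes lower and 11.1% called in either direction. Leaving out KO library 5 of series 19 lowered the count of 19 to 9, and leaving out KO library 3 of series 21 or KO library 4 or 5 of series 22 lowered it to 12. How many of all genes were called in these fits is not given here, so the drops cannot be read as particular to the members. The 2 comparisons share their KO libraries and are not independent of each other.

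The LSK result moved with the length index. Respiratory chain genes are short: the longest transcript of the tested nuclear members had a median of 1135 bases, against 3069 over all genes tested, and 57 of 88 were under 1500 bases. KO libraries had a higher index (-0.144 to 0.256, median 0.139) than WT libraries (-0.246 to -0.017, median -0.085). Other genes with transcripts under 1500 bases also tended lower in KO (359 lower and 111 higher of 2685, median -0.10), though by less than the members. Members of 1500 bases or more had a median of -0.30, with 17 of 31 lower, and shorter ones of -0.29, with 22 of 57 lower. Of the 31 longer members, 30 were of 1500 to 5000 bases and 1 was over 5000 bases. With the index as a covariate, 12 members were lower and Cox7a2l was higher, and the median was -0.09. In that model 690 of all 13878 genes tested were lower and 721 higher. The 12 were Ndufaf4, Ndufaf2, Ndufa5, Ndufa10, Ndufs1, Ndufv2, Uqcrq, Uqcrfs1, Atp5g3, Atp5f1, Atp5a1 and Atp5b. With only the 3 KO libraries whose index lay inside the WT range, Ndufaf4 (-0.49), Ndufs1 (-0.38) and Cox6a2 (1.66) were called, 76 of the members were below 0 and the median was -0.14. Without WT library 8 of series 22, 25 members were called. The share of all genes called in these reduced fits is not given here, so the lower counts cannot be read as particular to the members. None of the 40 members changed direction in any of 26 alternatives.

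**Figure D4:**
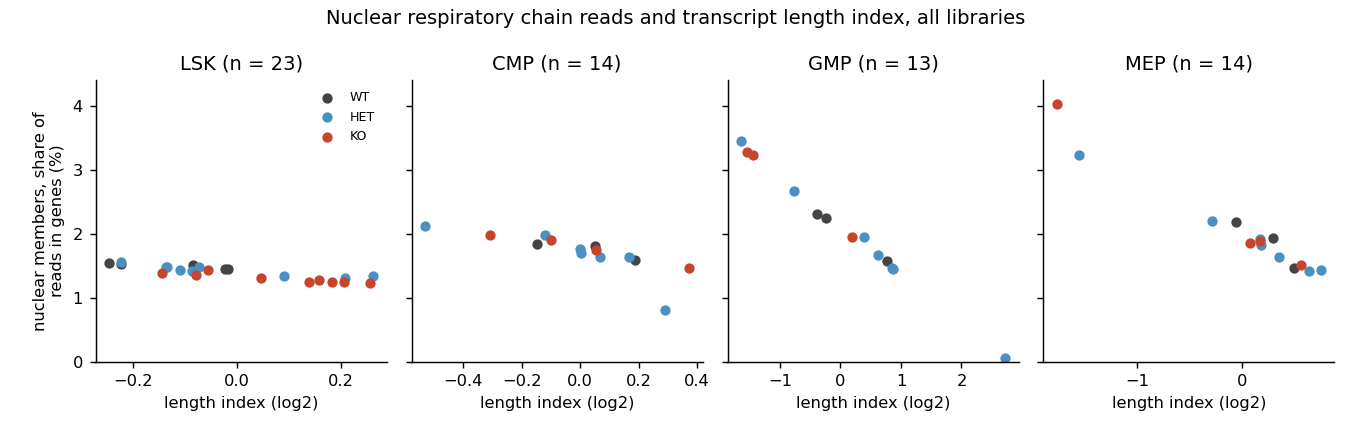
Nuclear member share of reads in genes, in percent, against the transcript length index for every library, 1 panel per population, coloured by genotype. In LSK the WT libraries sit at low index and high share, and in GMP and MEP single libraries with an index below -1 or above 1 hold the extreme shares (0.0522 to 4.03%).

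RNA from other cells also varied in LSK libraries. Genes of erythroblasts summed to 108 to 1837 CPM (median 494) in WT and 114 to 487 CPM (median 169) in KO, with 0 of 9 called. Genes of macrophages summed to 118 to 923 CPM (median 382) in WT and 24.7 to 1405 CPM (median 127) in KO, with 1 of 8 called. Hepatocyte genes summed to at most 55.6 CPM in either genotype. Their part in the fall of the nuclear members was not tested.

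Genes that work with the respiratory chain were counted in the same LSK test, from lists chosen with earlier results of these data known. In the citric acid cycle, which supplies the electrons, 10 of 16 genes fell and none rose (median -0.24): Idh3a fell by 0.45 ± 0.06 (adjusted p = 2.05e-05), Fh1 by 0.35 ± 0.07 (adjusted p = 0.00122) and Mdh2 by 0.31 ± 0.06 (adjusted p = 0.00173) on the log2 scale. Of 14 genes for cytochrome c and coenzyme Q, the mobile carriers, 6 fell and 1 rose. Cycs, cytochrome c itself, changed by -0.78 ± 0.09 (adjusted p = 1.26e-05), Pdss1, of the coenzyme Q tail, by -0.68 ± 0.12 (adjusted p = 0.000441) and Cyc1, of complex III, by -0.34 ± 0.07 (adjusted p = 0.00119). Of 23 genes of mitochondrial stress and mass, 12 fell and 1 rose. They included the chaperonins Hspd1 (-0.55 ± 0.07, adjusted p = 1.87e-05) and Hspe1 (-0.72 ± 0.11, adjusted p = 0.000121) and the ADP/ATP carrier Slc25a5 (-0.44 ± 0.07, adjusted p = 7.77e-05).

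Glycolysis genes went the other way in LSK cells: 10 of 17 rose and none fell, with all 17 above 0 (median 0.36). Slc2a1, the glucose transporter GLUT1, rose by 0.81 ± 0.15 (adjusted p = 0.000554), and the aldolases Aldoa by 0.48 ± 0.09 (adjusted p = 0.000491) and Aldoc by 1.46 ± 0.31 (adjusted p = 0.00183) on the log2 scale. With the length index as a covariate 9 glycolysis genes were higher and none lower, where 721 of all 13878 genes tested were higher and 690 lower. The citric acid cycle then had 9 genes lower, mitochondrial stress and mass 11, and the cytochrome c and coenzyme Q list 4 lower and 1 higher.

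Among 34 other assembly factors of the complexes, 6 fell and none rose, where 9.28% of all genes tested fell. With the length index as a covariate 3 were lower and 1 higher, with a median of -0.07 in place of -0.09. In that model 690 of all 13878 genes tested were lower and 721 higher. Sdhaf1, for complex II, changed by -0.68 ± 0.15 (adjusted p = 0.00264), Ecsit, for complex I, by -0.39 ± 0.10 (adjusted p = 0.00684) and Tmem70, for complex V, by -0.34 ± 0.09 (adjusted p = 0.00702). Of 24 genes that copy, transcribe or process the RNA of mitochondrial DNA, 6 fell and 1 rose, and with the length index 3 were lower and none higher. Lrpprc, which stabilises mitochondrial messenger RNA, changed by -0.50 ± 0.10 (adjusted p = 0.00092), Elac2, which cuts the ends of mitochondrial tRNAs, by -0.41 ± 0.10 (adjusted p = 0.00454) and Supv3l1, an RNA helicase, by -0.31 ± 0.08 (adjusted p = 0.00809). None of 12 nuclear regulators was called, although 10 were below 0 (median -0.21) and 2 had an unadjusted p under 0.05 (edgeR), and with the length index 1 was called lower. Nrf1, a transcription factor of many respiratory chain genes, was at 0.01 ± 0.09 (adjusted p = 0.944) and Gabpa, an ETS factor that binds many of their promoters, at -0.12 ± 0.08 (adjusted p = 0.295).

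The promoters of the members were searched for letters that these factors are known to bind, because so many members moved together. Windows were the 250 bases before the start of each gene in RefSeq (GRCm38.p6), found for 77 of the 94 nuclear members. GCGCATGC, the core of the NRF1 motif, stood on either strand in 9 of 77 members (11.7%), against 2.56% of all 27025 genes with a window and 5.21% of the 9612 tested in LSK. It was in 4 of 33 members that fell and 5 of 39 that were not called. The ETS letters CCGGAAG stood in 14 of 77 members (18.2%), against 16.4% of genes tested in LSK. They were in 4 of 33 members that fell and 10 of 39 that were not called. The YY1 letters AAGATGGC stood in 1 member (1.30%), against 2.55%. Matches of NRF1 and ETS letters do not overlap in the windows below. Shown are 4 members that fell and hold the NRF1 letters, and Cox7a2l, which rose and holds none of the 3. They are given 5' to 3' on the strand of the gene, with the searched letters in capitals.
Ndufaf4: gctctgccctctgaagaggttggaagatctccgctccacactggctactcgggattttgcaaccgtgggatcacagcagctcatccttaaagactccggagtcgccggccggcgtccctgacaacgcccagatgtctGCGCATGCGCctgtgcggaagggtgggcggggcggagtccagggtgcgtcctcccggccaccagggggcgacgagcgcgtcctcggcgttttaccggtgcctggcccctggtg
Sdhb: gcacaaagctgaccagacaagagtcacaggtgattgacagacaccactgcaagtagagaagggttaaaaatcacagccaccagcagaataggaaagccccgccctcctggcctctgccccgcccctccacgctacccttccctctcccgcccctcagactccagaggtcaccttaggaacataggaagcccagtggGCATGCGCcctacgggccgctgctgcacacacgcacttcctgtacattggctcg
Cox6a1: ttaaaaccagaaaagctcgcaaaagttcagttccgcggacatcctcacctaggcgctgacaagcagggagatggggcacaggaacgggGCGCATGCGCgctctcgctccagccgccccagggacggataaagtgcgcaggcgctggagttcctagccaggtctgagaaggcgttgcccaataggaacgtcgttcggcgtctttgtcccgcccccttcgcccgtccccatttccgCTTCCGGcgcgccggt
Ndufa11: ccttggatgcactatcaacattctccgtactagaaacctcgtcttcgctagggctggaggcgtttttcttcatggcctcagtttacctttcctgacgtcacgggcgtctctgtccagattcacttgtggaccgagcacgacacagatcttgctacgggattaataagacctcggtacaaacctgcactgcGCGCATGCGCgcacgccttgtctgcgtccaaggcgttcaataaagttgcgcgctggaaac
Cox7a2l: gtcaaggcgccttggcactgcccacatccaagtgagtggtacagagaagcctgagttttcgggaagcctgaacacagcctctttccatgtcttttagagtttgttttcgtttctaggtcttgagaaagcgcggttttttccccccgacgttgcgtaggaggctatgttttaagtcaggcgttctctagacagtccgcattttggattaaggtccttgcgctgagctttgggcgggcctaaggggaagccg
The windows are chr4:24897833-24898082 (plus) for Ndufaf4, chr4:140961021-140961270 (plus) for Sdhb, chr5:115348959-115349208 (minus) for Cox6a1, chr17:56717512-56717761 (plus) for Ndufa11 and chr17:83514334-83514583 (minus) for Cox7a2l. RefSeq and GENCODE do not place all starts alike: the Cox7a2l window lies wholly inside the GENCODE span of the gene, and those of Sdhb and Cox6a1 reach into theirs. For Cox7a2l the sequence before the GENCODE start was not searched. The first base of the NRF1 letters lay 113, 54, 162 and 60 bases before the start of Ndufaf4, Sdhb, Cox6a1 and Ndufa11. In Cox6a1, Ndufa11 and Ndufaf4 the match is read on both strands, in runs of 10 bases, and Cox6a1 also holds the ETS letters. A match describes letters and is not a bound site.

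In CMP none of 87 nuclear or 10 mitochondrial members passed the test between KO and WT, where 1.84% of all genes tested were called, and 6 nuclear and 2 mitochondrial members had an unadjusted p under 0.05 (edgeR). Nuclear fold changes were below 0 for 57 of 87, with a median of -0.09, and mitochondrial ones for 10 of 10, with a median of -0.44. In 5 nuclear members all KO libraries were below all WT libraries, and in 2 above. The share of all genes separated in this way is not given here, so these counts are not read as a result about the members. Atp5g3 was at 380, 453 and 525 CPM in WT and 236, 241, 289 and 354 CPM in KO, without overlap (-0.69 ± 0.20, adjusted p = 0.105). DESeq2 called it (adjusted p = 0.0303), as did limma (adjusted p = 0.0189), which also called Cox7a2l. Cox7a2l was at 109, 110 and 113 CPM in WT and 113, 143, 152 and 181 CPM in KO (0.42 ± 0.15, adjusted p = 0.21). Ndufaf4 was at 91.3, 99.6 and 144 CPM in WT and 74.5 to 88.6 CPM in KO (-0.51 ± 0.16, adjusted p = 0.145). mt-Nd3 was at 364, 395 and 580 CPM in WT and 224, 268, 304 and 309 CPM in KO (-0.69 ± 0.28, adjusted p = 0.284). These 4 members, named after their values were seen, had KO and WT libraries that did not overlap, for Cox7a2l only narrowly.

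CMP HET library 8 stood apart, with a nuclear share of 0.814% against 1.63 to 2.12% in the other 6 HET libraries. Without it, Atp5g3 (-0.70) and mt-Nd3 (-0.70) passed the test of KO against WT. Against HET, where 2.19% of genes were called, Atp5g3 was the 1 member called in KO (-0.70, adjusted p = 0.0404), and it was not called when KO library 6, 13 or 15 was left out. Hepatocyte genes, which summed to 312 to 807 CPM in WT and 37.9 to 136 CPM in KO, and erythroblast genes (1161 to 6140 against 116 to 2909 CPM) had 1 and 0 of their genes called. Their part in these values was not tested.

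In GMP no member passed, and the fold changes turned on which libraries were used. None of 87 nuclear or 9 mitochondrial members was called in KO against WT, where 0.204% of all genes were, and 1 nuclear member, Atp5e, had an unadjusted p under 0.05; DESeq2 and limma also called 0. Nuclear fold changes were above 0 for 79 of 87, with a median of 0.82. Atp5e, a small subunit of the central stalk of the ATP synthase, was at 34.4, 44.4 and 47.4 CPM in WT and 39.3, 150 and 246 CPM in KO libraries 13, 6 and 15 (1.79 ± 0.71, adjusted p = 0.683). KO libraries 6 and 15 had nuclear shares of 3.23 and 3.27%, KO library 13 had 1.95%, and WT libraries had 1.58 to 2.31%. With libraries of an index from -1 to 1 alone, which kept 1 KO library, the median was -0.34 and 77 members were below 0. With the index as a covariate it was -0.16, with 59 below 0. With spike-in share in the model 32 nuclear members and mt-Nd1 were called lower, with a median of -2.52. The share of all genes called in that model is not given here. Spike-in RNA made up 2.52 to 3.06% of reads in KO and 0.149 to 0.233% in WT GMP libraries, so that share and genotype cannot be told apart. Hepatocyte genes summed to 40.4 to 1395 CPM in WT and 25.5 to 86.6 CPM in KO libraries, with 0 of 10 called, and their part was not tested.

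In MEP the picture rested on KO library 15. None of 87 nuclear or 10 mitochondrial members was called in KO against WT, where 0.00856% of all genes were, and 2 nuclear members, Ndufaf3 and Cox8a, had an unadjusted p under 0.05 (edgeR). DESeq2 called 0 and limma 1, Cox6a2 (-2.41). Nuclear fold changes were above 0 for 83 of 87, with a median of 0.94. Cox8a was at 150, 186 and 215 CPM in WT and 153, 218, 241 and 1577 CPM in KO, the highest being library 15. That library had a nuclear share of 4.03%, against 1.51 to 1.88% in the other KO and 1.46 to 2.18% in WT libraries. Its mt-Cytb level was 51063 CPM, against 4526 to 8668 CPM in the other KO libraries. Without KO library 15 and HET library 8 the median was -0.12, with 63 of the members below 0 and 0 called. With the length index as a covariate 44 were below 0. Erythroblast genes summed to 2393 to 18220 CPM in WT and 856 to 3237 CPM in KO, and B cell genes to 237 to 1455 and 73.1 to 178 CPM, with 0 genes called; their part was not tested.

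The KO effects of the 3 populations were compared in a model over the genes listed in all of them. No member was called for the KO effect in GMP minus CMP (0.0169% of all genes called), in MEP minus CMP (0%) or in GMP minus MEP (0.414%). An unadjusted p under 0.05 was reached by 3, 0 and 0 nuclear members (edgeR), and DESeq2 and limma called 0. LSK cells were not in that model, and the difference between the LSK effect and the others was not tested.

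The nuclear members with the highest levels were shared between WT populations. Per kilobase of exon, the same 5 genes were highest in all 4 populations: Atp5b, Atp5a1 and Atp5c1 of the ATP synthase, Cox6b1 of complex IV and Ndufa4, first named for complex I and now placed in complex IV. In LSK they stood at 621 ± 33 (Atp5b), 495 ± 16 (Atp5a1), 362 ± 15 (Atp5c1), 309 ± 21 (Ndufa4) and 299 ± 32 (Cox6b1) CPM per kilobase (mean ± SD, n = 5). Ndufa4 and Cox6b1 did not differ beyond their spread. No member was called between WT GMP and CMP (1.03% of all genes called), WT MEP and CMP (3.1%) or WT GMP and MEP (6.95%), and unadjusted p under 0.05 was reached by 2, 1 and 1 nuclear members. Cox6b2, a form known from testis, was at 16.2 to 28.1 CPM in MEP and 5.52 to 7.26 CPM in CMP, without overlap over 3 libraries each (1.68 ± 0.75, adjusted p = 0.402). Ndufaf4 was at 67.7 ± 12.5 CPM in GMP and 123 ± 33 CPM in MEP (SD, n = 3; -0.86 ± 0.33, adjusted p = 0.123). mt-Nd3 was at 175 ± 136 CPM in GMP and 408 ± 106 CPM in CMP (SD, n = 3; -1.23 ± 0.43, adjusted p = 0.205), and it passed without GMP WT library 2 (-2.07) and with the length index as a covariate (-1.16). limma called 51 nuclear members in GMP against CMP, 2 in MEP against CMP and 35 in GMP against MEP, and DESeq2 called 0, 0 and 1 (Ndufaf4). The percentages of all genes above are those of edgeR. The share of all genes that limma called is not given here, so its counts cannot be read as particular to the members.

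The order of the mitochondrial members differed between the tables. In WT LSK cells mt-Co1 had the highest mean per kilobase (5461 ± 2283 CPM per kilobase, SD, n = 5), then mt-Cytb (4915), mt-Atp6 (3582) and mt-Nd1 (3309). Taken within each library, mt-Co1 and mt-Cytb were above mt-Atp6 and mt-Nd1 in all 5. The order of mt-Co1 and mt-Cytb, and that of mt-Atp6 and mt-Nd1, differed between libraries. In CMP and MEP mt-Nd1 was highest (10643 and 11940), followed by mt-Cytb (7229 and 7296) and mt-Co1 (4016 and 3568), and in GMP mt-Cytb (10781 ± 6381, SD, n = 3), mt-Nd1 (9943 ± 3866) and mt-Co1 (2121). In every WT library of CMP mt-Nd1 was above mt-Cytb per kilobase. In GMP their means differed by less than the SD of the higher of them, and which gene was higher changed between libraries. Their order was not told apart in GMP. The 4 genes that lie side by side from mt-Co2 to mt-Co3 (chrM:7013-9390) held 155168, 46903, 512265 and 337182 reads over all LSK libraries. In CMP, GMP and MEP, mt-Atp6 held 289, 158 and 174 reads in all, and mt-Atp8 held 685 in MEP. A stretch of chromosome 1 (chr1:24611535-24616197) carries 7 annotated pseudogenes, copies of mitochondrial genes. Of these, Gm10222 was listed, in LSK alone, with 34220 reads. The part of these copies in the difference was not tested, and levels are set across tables that were made separately.

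**Figure D5:**
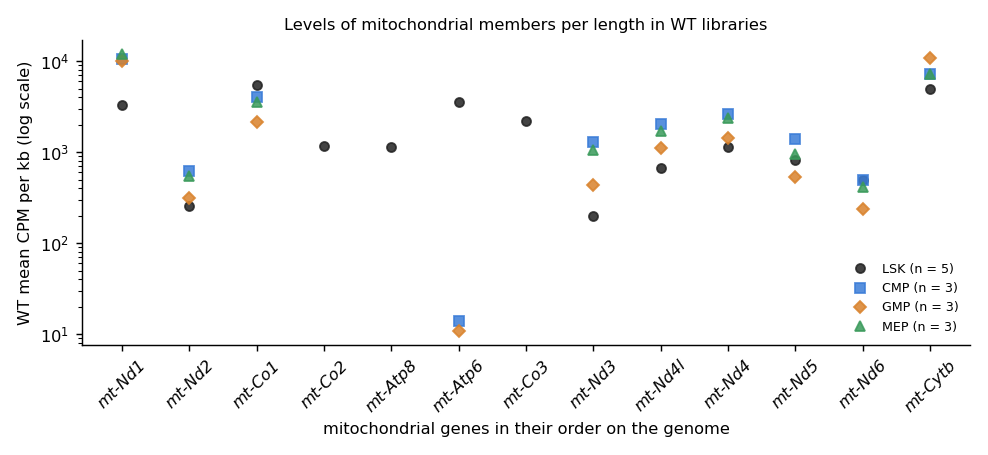
Mean WT level of each mitochondrial member in CPM per kilobase on a log axis, in the order of the genes on the mitochondrial DNA, with 1 symbol per population (5 libraries in LSK, 3 in the others); means of 0 are not drawn. mt-Atp6 is at 3582 in LSK and at 14.0 and 10.8 in CMP and GMP, and mt-Co2, mt-Atp8 and mt-Co3 have points in LSK only.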

How the data were processed

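Per the labels' protocols, sorted cells were lysed, their RNA was copied and amplified by Smart-seq2, and the cDNA was tagmented. Reads carry no molecule tag or strand and are not independent molecules. The authors deposited whole-number read counts per Ensembl gene. Per the submitters' processing notes they used featureCounts and the builds mm10 and GRCm38. The aligner is not given in the sources used here, nor is the annotation release. How featureCounts treated reads that fit several places is not given either. Exons of 33 of the 94 nuclear and 10 of the 13 mitochondrial members overlap another annotated gene, and reads there are uncertain. The overlaps are mostly on the other strand for nuclear members and mostly on the same strand for mitochondrial ones.

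From these counts, edgeR 4.0.16 (R 4.3.3) fitted each population with its 3 genotypes in 1 robust quasi-likelihood model, with TMM scaling and genes kept by filterByExpr (minimum count 10, minimum total 15). All genes kept were tested, with Benjamini-Hochberg adjustment at 0.05. Every adjusted p is from this test unless another tool is named. The SE is the absolute log2 fold change divided by the square root of F. Levels are CPM of the scaled library. A second model held the 11829 genes tested across CMP, GMP and MEP. Alternatives were DESeq2 1.42.0, limma 3.58.1 with quality weights, other scaling and filters, sex, the title series as a block, the length index, the spike-in share and each library left out. Chosen after seeing the data were the models without libraries that stood apart. Scripts were tested on simulated data.

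Members and lists were chosen with earlier results of these data known. Named were all mitochondrial members, the 12 nuclear members with the smallest p in LSK, core subunits, tissue-restricted isoforms, the 5 highest per length and up to 3 genes per pathway list. The values of 1 gene under this rule are not reported here. Ndufaf3, Cox8a, Atp5e, Cox6b2, Ndufaf4, mt-Nd3 and the CMP examples were named after their values were seen. Title numbers 19 to 24 are called series.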

Additional observations from a re-analysis of the deposited data

Results flagged for a closer look

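In 94 groups of 4 to 10 libraries, 6 held a library far from the others, where chance alone marks about 1 in 20. In WT LSK, mt-Co2 was at 1235 CPM in library 10 of series 24 and at 585 to 739 CPM in the other 4. In HET LSK, Cox7a2l was at 151 CPM in library 4 of series 20 and at 191 to 226 CPM in the others. In KO LSK, Atp5b was at 2496 CPM in library 2 of series 21 and at 2110 to 2269 CPM in the others. The nuclear members took 0.814% of reads in CMP HET library 8 (others 1.63 to 2.12%), 3.23% in MEP HET library 8 (others 1.42 to 2.20%) and 4.03% in MEP KO library 15 (others 1.51 to 1.88%). Spike-in RNA, outside the main measurement, made up at least 2.52% of reads in each GMP KO library against 0.149 to 0.233% in WT.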

How the results depend on the processing

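For KO against WT in LSK, 40 nuclear members were called, 13 with the length index as a covariate, 25 with the spike-in share, 3 with the KO libraries inside the WT range of the index, and 25 to 47 with each library left out, lowest without WT library 8 of series 22; with each of 14 libraries left out, 23 of the 40 were called throughout. Of the 40, 31 were still called with sex as a covariate, and 31 with no count filter. With the spike-in share 2 mitochondrial members were called, mt-Nd3 and mt-Nd6. KO against HET in LSK gave 19 nuclear members, 30 by limma, 11 with the length index and 9 to 24 with libraries left out. For these alternative fits the share of all genes called is not given here, save for KO against WT with the length index. Changes in the counts therefore cannot be read as particular to the members.

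In CMP, KO against WT gave 1 nuclear member by DESeq2, 2 by limma, 1 with WT and KO libraries alone and 1 without HET library 8, and mt-Nd3 was the 1 mitochondrial member by limma, with WT and KO alone and without HET library 8. KO against HET gave 0 to 1 nuclear members with libraries left out. In GMP, limma called 61 nuclear and 6 mitochondrial members in HET against WT, where edgeR called 0, and the spike-in share gave 32 and 1 in KO against WT. The shares of all genes called in these fits are not given here, so the counts cannot be read as particular to the members. In MEP, limma called 1 nuclear member in KO against WT and 1 in KO against HET, as did the length index in the latter (1), each time Cox6a2.

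Between WT populations, limma called 51 nuclear and 8 mitochondrial members in GMP against CMP, 2 nuclear in MEP against CMP, and 35 and 8 in GMP against MEP, where DESeq2 called 1. With the length index these were 1 (Ndufaf2) and 1 (mt-Nd3), 1 (Cox6b2), and 4 (Cox6b2, Ndufaf4, Ndufc2, Uqcrh) and 1 (mt-Nd3). Leaving out libraries gave 0 to 2 mitochondrial members in GMP against CMP and 0 to 2 in GMP against MEP; without GMP WT library 2 these were mt-Nd3 and mt-Nd5. The KO effect in GMP minus CMP gave 0 to 1 nuclear members, Atp5e without GMP KO library 13. The cause of these shifts was not tested, and the share of all genes called by limma is not given here.

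With the replicate block, the title series, LSK KO against WT again gave 40 nuclear members, 38 of them shared with the fit without it, and CMP KO against HET gave 0 instead of 1. The models across CMP, GMP and MEP gave 0 members called with the title number as the block and without it. The labels do not say what a number shares, and not every pair's deviations correlated above 0.1: same-numbered pairs did in 9 of 13 for CMP and GMP, 12 of 14 for CMP and MEP and 5 of 13 for GMP and MEP, and pairs of 1 title series in 27 of 35 for LSK (median 0.25), 9 of 21 for CMP, 7 of 17 for GMP and 13 of 21 for MEP. The numbers were therefore not used as a block in the values of the text. In MEP KO against WT the nuclear median was -0.36 with the block and 0.94 without, with 0 called in both. Of 514 counts recomputed, 471 stayed within 1.5 times, 13 were lower and 30 higher, and none reversed. Counts of 0 that stayed 0 are among the 471. These are counts of called members and do not follow the median fold change. The nuclear medians of KO against WT in GMP and MEP changed sign under alternatives given above.

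Depth limits rare forms such as Cox7a1 (114 reads in all LSK libraries). With 3 or 4 libraries a group in CMP, GMP and MEP and single libraries that stand apart, falls of the LSK size were not detectable in GMP and MEP.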
